A study of Mus musculus with 16 samples.

Results

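The 9 Krüppel-like factor genes Klf2, Klf3, Klf4, Klf5, Klf6, Klf7, Klf9, Klf13 and Klf16 were followed in mouse embryonic stem (ES) cells as the cells left naive pluripotency. They were chosen by symbol, as 9 of the 27179 genes in the deposited count table, and all 9 passed the filter on low counts that left 14288 genes for testing. RNA was measured in 16 libraries, which formed 8 groups of 2 replicates. The groups combined 2 maintenance media with collection at 0, 12, 24 and 40 h. Cells came from serum/LIF culture and were adapted either to 2i/LIF (2iLIF in the sample titles), a serum-free medium with N-2 and B-27 supplements, or to serum/LIF+2i (2iSL), which held 10% fetal bovine serum. Each of these media had LIF, the cytokine leukaemia inhibitory factor, and the 2 inhibitors called 2i, namely 3 uM CHIR99021, which blocks GSK3, and 1 uM PD0325901, which blocks MEK. At time 0 the cells were in these media. For the later times they were washed and held in serum-free medium without 2i or LIF. The 2iSL cells received a DMEM and Neurobasal mix made from glutamine-free DMEM with added glutamine and the 2iLIF cells their usual base, so maintenance medium and exit medium cannot be told apart in comparisons between the media. All groups were grown on gelatin. The ES cell line and its genotype are not named in the labels.

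Krüppel-like factors are transcription factors with a conserved DNA-binding domain of zinc fingers at the C terminus, which binds GC-rich and CACCC-type sequences. The N-terminal parts differ and recruit either coactivators or co-repressors. In mouse ES cells, Klf2, Klf4 and Klf5 support self-renewal and the naive state. LIF acts on Klf4 through the kinase JAK and the transcription factor STAT3, Klf2 protein is destabilised when MEK and ERK are active, and Klf4 is one of the factors used to reprogram somatic cells. Klf3 is known as a repressor that recruits CtBP, Klf9, Klf13 and Klf16 as a subgroup that binds the co-repressor Sin3a, and Klf6 and Klf7 as a subgroup of transcriptional activators.

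Promoter sequences were available for 7 of the 9 genes, all but Klf5 and Klf16, as the 250 bases before the transcription start in RefSeq (GRCm38.p6). Those of Klf2, Klf4 and Klf9 are shown 5′ to 3′ on the gene's strand. Klf2 and Klf4 had the highest levels in naive cells. Klf9 had the highest level per length (RPKM, by the deposited gene lengths) at 40 h in both media. Capitals mark the GC box letters GGGCGG (or CCGCCC on the other strand), which Sp and Klf proteins bind, and the letters TTCNNNGAA, a STAT-type motif that reads the same on both strands. The sequences lie at chr8:72318812-72319061 on the plus strand for Klf2, chr4:55532476-55532725 on the minus strand for Klf4, and chr19:23140976-23141225 on the plus strand for Klf9.
Klf2: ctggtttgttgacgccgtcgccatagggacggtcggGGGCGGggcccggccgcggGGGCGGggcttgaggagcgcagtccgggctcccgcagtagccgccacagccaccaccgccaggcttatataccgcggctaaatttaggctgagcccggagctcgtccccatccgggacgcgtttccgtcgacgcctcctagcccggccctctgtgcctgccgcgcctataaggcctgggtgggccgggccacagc
Klf4: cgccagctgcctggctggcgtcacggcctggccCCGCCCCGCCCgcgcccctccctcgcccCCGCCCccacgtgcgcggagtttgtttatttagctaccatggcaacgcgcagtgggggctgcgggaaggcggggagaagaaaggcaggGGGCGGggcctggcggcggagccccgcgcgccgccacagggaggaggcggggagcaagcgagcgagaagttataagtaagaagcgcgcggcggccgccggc
Klf9: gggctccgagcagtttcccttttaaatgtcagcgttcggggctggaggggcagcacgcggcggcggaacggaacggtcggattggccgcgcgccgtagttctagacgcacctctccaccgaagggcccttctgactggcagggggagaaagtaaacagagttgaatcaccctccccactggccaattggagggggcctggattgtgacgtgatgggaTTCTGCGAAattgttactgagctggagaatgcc
The Klf2 window held 2 GC boxes and the Klf4 window held 4, and some of those in Klf4 share bases with their neighbours. The Klf9 window held none, and it was the only one of the 7 with the STAT-type letters, 33 bases before the start. The other windows held 6 GC boxes in Klf3, 3 in Klf13, and 1 each in Klf6 and Klf7. Among 32817 mouse promoters of the same 250 bases, 32.7% held a GC box and 7.01% the STAT-type letters. The letters CACCC (or GGGTG) were found in Klf2, Klf3, Klf7, Klf9 and Klf13 and in 52.0% of all these promoters, and may overlap other motifs. TCAAAG, the TCF-type letters, and TATAAA were found in 0 of the 7 windows on either strand, against 13.8% and 12.4% of all promoters. These matches describe letters only. The RefSeq starts differ from the GENCODE positions given below for some genes. The windows of Klf2, Klf3 and Klf6 reach into the GENCODE gene, and that of Klf7 lies within it.

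Total counts per library ran from 5931381 to 11142744, and 3 counts corresponded to 0.259 to 0.517 CPM, the usual unit of counts scaled to library size (here by TMM). The summed level of 7 ES cell markers, Pou5f1, Sox2, Nanog, Dppa5a, Utf1, Sall4 and Lin28a, was 2992 to 4796 CPM over the libraries, with none at 0. Over both media this sum was 3682 to 4102 CPM at 0 h, 4521 to 4796 CPM at 12 h and 2992 to 3048 CPM at 40 h. By the edgeR test at 40 h, 2 of the 7 rose and 4 fell in each medium. Over all genes tested, 34.1% rose and 34.7% fell in 2iLIF, and 35.3% moved each way in 2iSL. Summed markers of fibroblasts or feeder cells (7 genes) were 2.14 to 17.8 CPM, of primitive endoderm (6 genes) 2.54 to 16.2 CPM, of trophoblast (5 genes) 3.51 to 19.8 CPM, and of 2-cell-like cells (4 genes) 0.441 to 32.9 CPM. Of each of these lists, 0 genes were at 0 in all libraries. The sum for 2-cell-like cells was 3.04 and 5.34 CPM at 0 h and 13.4 and 20.9 CPM at 40 h in 2iLIF, and 0.441 and 0.882 CPM against 32.1 and 32.9 CPM in 2iSL. Over the libraries of both media, trophoblast markers were at 14.6 to 19.8 CPM at 0 h and 3.51 to 5.03 CPM at 40 h, and primitive endoderm markers at 6.23 to 6.90 CPM and 10.5 to 16.2 CPM. Fibroblast markers at 0, 12 and 40 h were at 16.1 to 16.7, 2.14 to 4.25 and 12.4 to 17.8 CPM in 2iLIF. In 2iSL they were at 6.46 to 6.76, 2.24 to 4.19 and 10.2 to 11.5 CPM. The part of these markers in the results was not tested. The labels do not say that replicates were separate cultures, so p-values measure only the spread between these libraries, which may be technical.

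Klf4, Klf2 and Klf5, the factors that support naive self-renewal, fell in both media at every time after release. Within a medium, the comparisons with 0 h share their 0 h libraries. Klf4 fell furthest, Klf2 fell to different depths in the media, and Klf5 had covered the least of its change by 12 h among these 3. In bulk RNA, fewer cells that express a gene and less RNA per cell cannot be told apart.

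**Figure D1:**
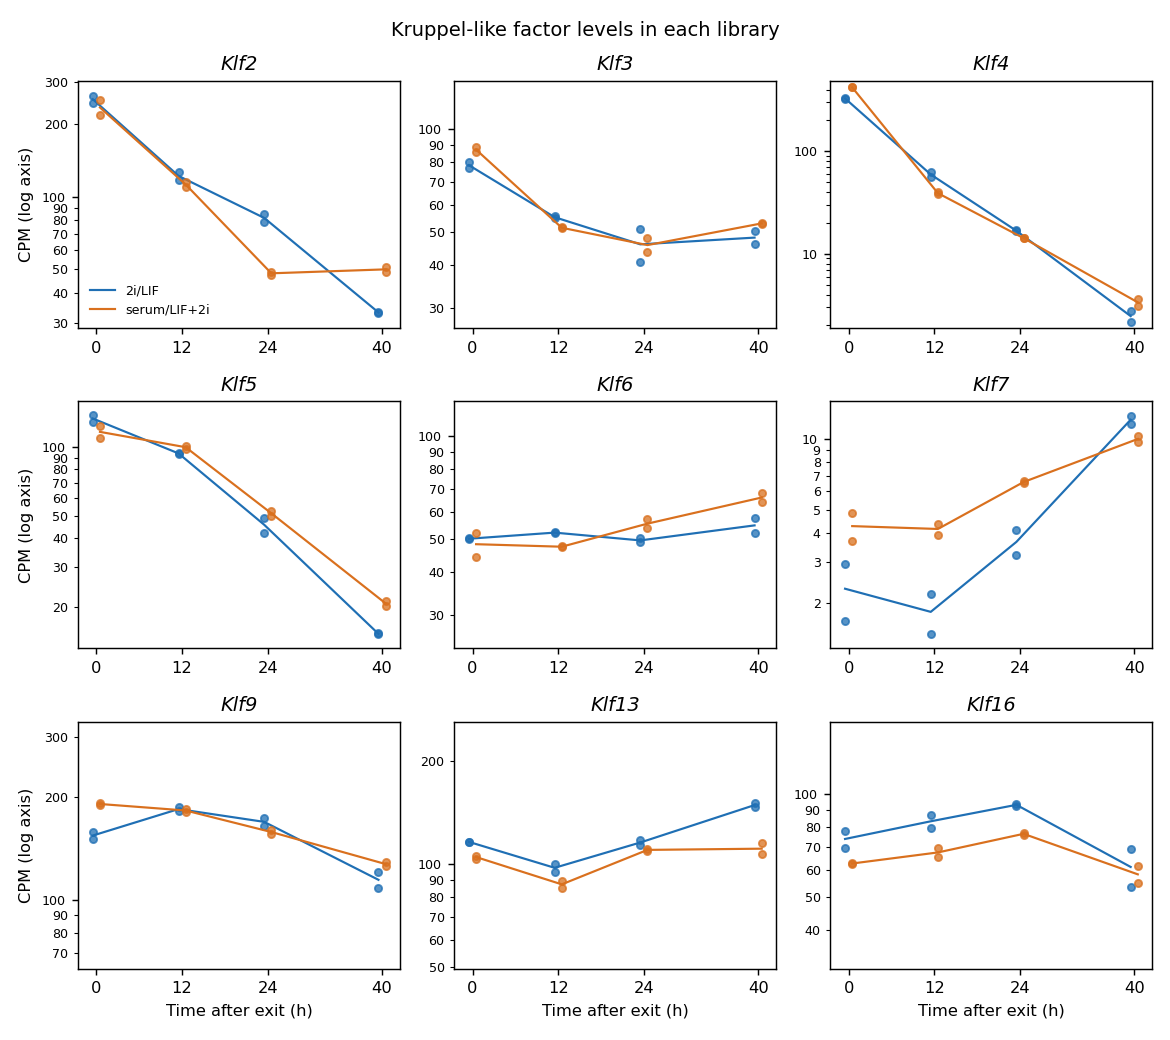
Levels of the 9 genes in CPM (log axis) against hours after release, with a point for each library and a line through the means of the 2 libraries of each group, for 2iLIF and 2iSL. Klf4 runs from 328 and 420.0 CPM at 0 h to 2.46 and 3.36 CPM at 40 h, whereas Klf6 stays between 44.4 and 68.1 CPM in all libraries.

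Klf4 lies on chromosome 4 (GRCm38, 55527143 to 55532466, minus strand; Entrez 16600). In 2iLIF its level was 323 and 333 CPM at 0 h, 55.8 and 63.0 CPM at 12 h, 16.9 and 16.6 CPM at 24 h, and 2.76 and 2.17 CPM at 40 h. In 2iSL it was 421 and 419 CPM at 0 h, 38.2 and 39.8 CPM at 12 h, 14.3 and 14.2 CPM at 24 h, and 3.62 and 3.10 CPM at 40 h. No library of one time overlapped those of another within a medium. Klf4 was 5.52-fold lower at 12 h than at 0 h in 2iLIF (log2 change -2.46 ± 0.06 (SE), adjusted p = 1.8e-71, edgeR quasi-likelihood test) and 10.7-fold lower in 2iSL (-3.42 ± 0.06, adjusted p = 1.6e-86). At 40 h it was 132-fold lower in 2iLIF (-7.04 ± 0.10, adjusted p = 2.2e-94) and 124-fold lower in 2iSL (-6.95 ± 0.08, adjusted p = 1.5e-103). The levels at 40 h rest on 22 and 16 counts in 2iLIF and 42 and 32 in 2iSL, all above the floor of 3. Of 14288 genes ordered from the lowest fitted log2 change at 40 h, Klf4 was number 61 in 2iLIF and number 37 in 2iSL.

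The fall of Klf4 was still under way between 24 and 40 h in both media, with log2 changes of -2.75 ± 0.20 in 2iLIF (adjusted p = 7.4e-25) and -2.07 ± 0.16 in 2iSL (adjusted p = 3.0e-22). By 12 h it had covered 35.0% of its log2 change at 40 h in 2iLIF and 49.2% in 2iSL, and by 24 h 60.9% and 70.2%. The promoter printed above for Klf4 is the one with 4 GC boxes.

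Klf2, whose protein is stabilised in naive cells when ERK signalling is blocked, lies on chromosome 8 (72319033 to 72321656, plus strand; Entrez 16598). In 2iLIF it measured 245 and 263 CPM at 0 h, 118 and 126 CPM at 12 h, 84.7 and 78.9 CPM at 24 h, and 33.4 and 32.9 CPM at 40 h. In 2iSL it measured 252 and 218 CPM at 0 h, 109.7 and 115 CPM at 12 h, 47.4 and 48.9 CPM at 24 h, and 51.1 and 49.0 CPM at 40 h. So each later time lay below the one before it in 2iLIF, whereas in 2iSL the libraries of 40 h were not below those of 24 h. At 40 h Klf2 was 7.67-fold lower than at 0 h in 2iLIF (log2 change -2.94 ± 0.07, adjusted p = 1.1e-67) and 4.69-fold lower in 2iSL (-2.23 ± 0.06, adjusted p = 2.1e-62). From 24 to 40 h the log2 change was -1.30 ± 0.08 in 2iLIF (adjusted p = 8.4e-29) and 0.06 ± 0.07 in 2iSL (adjusted p = 0.55). The difference between these 2 steps, a comparison added after the values were seen, was 1.36 ± 0.11 (adjusted p = 1.1e-19), and it kept its call under every alternative run. In 2iSL, Klf2 had covered 102% of its log2 change at 40 h by 24 h, against 55.7% in 2iLIF.

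Klf5, a factor that acts in the inner cell mass and trophectoderm of the embryo as well as in ES cells, lies on chromosome 14 (99298691 to 99315036, plus strand; Entrez 12224). Its level in 2iLIF was 138 and 129 CPM at 0 h, 94.6 and 93.3 CPM at 12 h, 49.3 and 42.4 CPM at 24 h, and 15.4 and 15.2 CPM at 40 h. In 2iSL it was 123 and 110.2 CPM at 0 h, 101 and 98.6 CPM at 12 h, 50.0 and 52.9 CPM at 24 h, and 21.4 and 20.2 CPM at 40 h. The groups did not overlap in either medium, and the first step was the smallest on the log2 scale. At 12 h the log2 change was -0.50 ± 0.06 in 2iLIF (adjusted p = 6.9e-12) and -0.22 ± 0.06 in 2iSL (adjusted p = 0.0010). The call in 2iSL was lost without replicate 1 of 0 h (-0.14, adjusted p = 0.12). By 12 h, 16.2% and 9.02% of the log2 change at 40 h had been covered. At 40 h Klf5 was 8.69-fold lower in 2iLIF (-3.12 ± 0.09, adjusted p = 2.8e-62) and 5.60-fold lower in 2iSL (-2.48 ± 0.08, adjusted p = 2.0e-58).

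Across the 8 group means, Pearson's r of log2 CPM (prior count 2) was 0.971 between Klf2 and Klf4, 0.937 between Klf4 and Klf5 and 0.909 between Klf2 and Klf5. These values are descriptions over 8 groups that share their time course, and no test was made of them.

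Klf3, the repressor that recruits CtBP, had its largest change in the first 12 h. It lies on chromosome 5 (64803388 to 64832901, plus strand; Entrez 16599). Its level in 2iLIF was 80.1 and 76.7 CPM at 0 h, 55.6 and 54.8 CPM at 12 h, 51.1 and 40.9 CPM at 24 h, and 46.0 and 50.3 CPM at 40 h. In 2iSL the same times gave 85.7 and 88.6 CPM, 51.2 and 51.6 CPM, 47.9 and 43.6 CPM, and 53.1 and 52.8 CPM. All later libraries lay below those of 0 h, and those of 24 and 40 h overlapped in 2iLIF. At 12 h the log2 change was -0.50 ± 0.08 in 2iLIF (adjusted p = 1.5e-08) and -0.76 ± 0.07 in 2iSL (adjusted p = 5.8e-17). The values at 40 h were -0.71 ± 0.08 (adjusted p = 3.6e-14) and -0.72 ± 0.07 (adjusted p = 3.0e-17). From 12 to 24 h in 2iLIF it fell by 0.26 ± 0.08 on the log2 scale (adjusted p = 0.011), a value of -0.43 without replicate 1 of 24 h (adjusted p = 0.00070). That call was lost with DESeq2 (-0.26, adjusted p = 0.058), without replicate 1 of 12 h (-0.25, adjusted p = 0.058) and without replicate 2 of 24 h (-0.11, adjusted p = 0.43). The change between 24 and 40 h missed the threshold in 2iLIF (0.06 ± 0.09, adjusted p = 0.62). In 2iSL it was a rise of 0.21 ± 0.07 (adjusted p = 0.012), which was lost with DESeq2 (0.22, adjusted p = 0.067) and without replicate 2 of 24 h (0.14, adjusted p = 0.21), replicate 1 of 40 h (0.20, adjusted p = 0.069) or replicate 2 of 40 h (0.21, adjusted p = 0.052). An exon of Klf3 shares 404 bases with Gm20033 on the opposite strand in GENCODE. Whether the counting used strand, and whether the counted model of 2314 bases holds the shared bases, is not given in the sources used here. The level of Klf3 is uncertain to that extent.

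Klf9, Klf13 and Klf16, the subgroup that binds Sin3a, moved by 0.58 or less on the log2 scale at 40 h in both media, and not in the same direction. Klf9 is known as a target of glucocorticoid and thyroid hormone receptors and lies on chromosome 19 (23141226 to 23168134, plus strand; Entrez 16601). In 2iLIF it measured 158 and 151 CPM at 0 h, 182 and 187 CPM at 12 h, 173 and 165 CPM at 24 h, and 108 and 121 CPM at 40 h. In 2iSL it measured 192 and 189 CPM, 184 and 181 CPM, 160.3 and 155 CPM, and 129 and 126 CPM. In 2iLIF, then, the level was highest at 12 h and lowest at 40 h, whereas in 2iSL each later time lay below the one before. The log2 change at 12 h was 0.26 ± 0.05 in 2iLIF (adjusted p = 7.6e-06) and -0.06 ± 0.05 in 2iSL (adjusted p = 0.27). At 40 h Klf9 was lower than at 0 h in both, by a log2 change of -0.43 ± 0.05 (adjusted p = 5.2e-12) and -0.58 ± 0.05 (adjusted p = 2.8e-21). The small rise at 24 h in 2iLIF (0.14 ± 0.05, adjusted p = 0.020) was lost with DESeq2 (0.13, adjusted p = 0.078), without replicate 2 of 0 h (0.10) and without replicate 1 of 24 h (0.10, both adjusted p = 0.20).

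Klf13, which is known to regulate the chemokine gene Ccl5 in T cells, lies on chromosome 7 (63886351 to 63938915, minus strand; Entrez 50794). In 2iLIF it measured 116 and 116 CPM at 0 h, 94.7 and 100.4 CPM at 12 h, 117 and 114 CPM at 24 h, and 147 and 151 CPM at 40 h. In 2iSL it measured 106 and 104 CPM, 85.3 and 89.2 CPM, 109 and 111 CPM, and 115 and 107 CPM. Both media thus had their lowest level at 12 h, and the libraries at 40 h in 2iLIF were the highest of all. The dip at 12 h was similar in size, with log2 changes of -0.25 ± 0.06 in 2iLIF (adjusted p = 0.00020) and -0.26 ± 0.06 in 2iSL (adjusted p = 8.5e-05). At 40 h Klf13 rose above 0 h in 2iLIF (0.36 ± 0.06, adjusted p = 8.9e-09), and in 2iSL the change was 0.08 ± 0.06 (adjusted p = 0.17). The latter was called with library size only (0.16, adjusted p = 0.0073) and over genes at a mean of 5 CPM or more (0.13, adjusted p = 0.029).

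Klf16, a GC-box binding factor of the same subgroup, lies on chromosome 10 (80567124 to 80577321, minus strand; Entrez 118445). In 2iLIF it measured 69.6 and 78.1 CPM at 0 h, 79.8 and 86.6 CPM at 12 h, 93.7 and 92.2 CPM at 24 h, and 68.9 and 53.4 CPM at 40 h. In 2iSL it measured 62.7 and 62.4 CPM, 69.6 and 65.3 CPM, 75.9 and 77.0 CPM, and 61.4 and 55.0 CPM. Its highest level was at 24 h in both media, with log2 changes from 0 h of 0.33 ± 0.07 (adjusted p = 9.3e-05) and 0.29 ± 0.07 (adjusted p = 0.00046). From 24 to 40 h it fell by 0.60 ± 0.07 on the log2 scale in 2iLIF (adjusted p = 4.4e-11) and by 0.39 ± 0.07 in 2iSL (adjusted p = 9.6e-07). The difference between 40 and 0 h in 2iLIF (-0.27 ± 0.08, adjusted p = 0.0018) rested on single libraries: it was -0.10 without replicate 2 of 40 h (adjusted p = 0.29), -0.18 without replicate 2 of 0 h (adjusted p = 0.12) and -0.47 without replicate 1 of 40 h (adjusted p = 4.2e-06). The same difference in 2iSL was -0.10 ± 0.08 (adjusted p = 0.23).

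Klf7 rose late from a low level, and Klf6 moved little. Klf7, known for its role in neuronal development, lies on chromosome 1 (64029447 to 64122282, minus strand; Entrez 93691). In 2iLIF it measured 2.93 and 1.67 CPM at 0 h, 2.19 and 1.47 CPM at 12 h, 3.19 and 4.10 CPM at 24 h, and 11.6 and 12.6 CPM at 40 h. In 2iSL it measured 4.85 and 3.67 CPM, 3.92 and 4.36 CPM, 6.53 and 6.62 CPM, and 9.74 and 10.4 CPM. The libraries of 0 and 12 h overlapped in both media, and those of 40 h lay above all others. At 40 h Klf7 was 5.33-fold higher than at 0 h in 2iLIF (log2 change 2.41 ± 0.26, adjusted p = 5.0e-15) and 2.35-fold higher in 2iSL (1.23 ± 0.21, adjusted p = 2.0e-07). At 24 h the change was 0.68 ± 0.35 in 2iLIF (adjusted p = 0.083), and 1.11 without replicate 1 of 0 h (adjusted p = 0.034). The change in 2iSL was 0.62 ± 0.24 (adjusted p = 0.017), a call lost with DESeq2 (0.64, adjusted p = 0.075), without replicate 2 of 0 h (0.45, adjusted p = 0.18) and without replicate 2 of 24 h (0.61, adjusted p = 0.060). Exons of Klf7 share 3196 bases with Gm26649 and 4 with Gm13748, both on the opposite strand in GENCODE. The counted model of Klf7 has only 1344 bases, and whether it holds shared bases is not given. Its level is therefore uncertain as for Klf3.

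Klf6, a widely expressed factor known from wound and injury responses, lies on chromosome 13 (5861482 to 5870394, plus strand; Entrez 23849). In 2iLIF it measured 50.3 and 49.8 CPM at 0 h, 52.4 and 52.0 CPM at 12 h, 48.9 and 50.1 CPM at 24 h, and 52.1 and 57.5 CPM at 40 h. In 2iSL it measured 44.4 and 52.1 CPM, 47.3 and 47.6 CPM, 57.1 and 53.8 CPM, and 68.1 and 64.2 CPM. In 2iLIF no change from 0 h passed the test at any time (log2 changes 0.06, -0.02 and 0.13, adjusted p = 0.60, 0.88 and 0.17), but that at 40 h was called with library size only (0.20, adjusted p = 0.033). In 2iSL Klf6 was 1.37-fold higher at 40 h than at 0 h (0.46 ± 0.08, adjusted p = 5.7e-08), and both of those libraries lay above all others of that medium. The rise at 24 h there (0.20 ± 0.08, adjusted p = 0.023) was lost with DESeq2 (0.21, adjusted p = 0.075) and without replicate 1 of 0 h (0.09, adjusted p = 0.46) or replicate 1 of 24 h (0.16, adjusted p = 0.15). It was 0.33 without replicate 2 of 0 h (adjusted p = 0.0028).

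**Figure D2:**
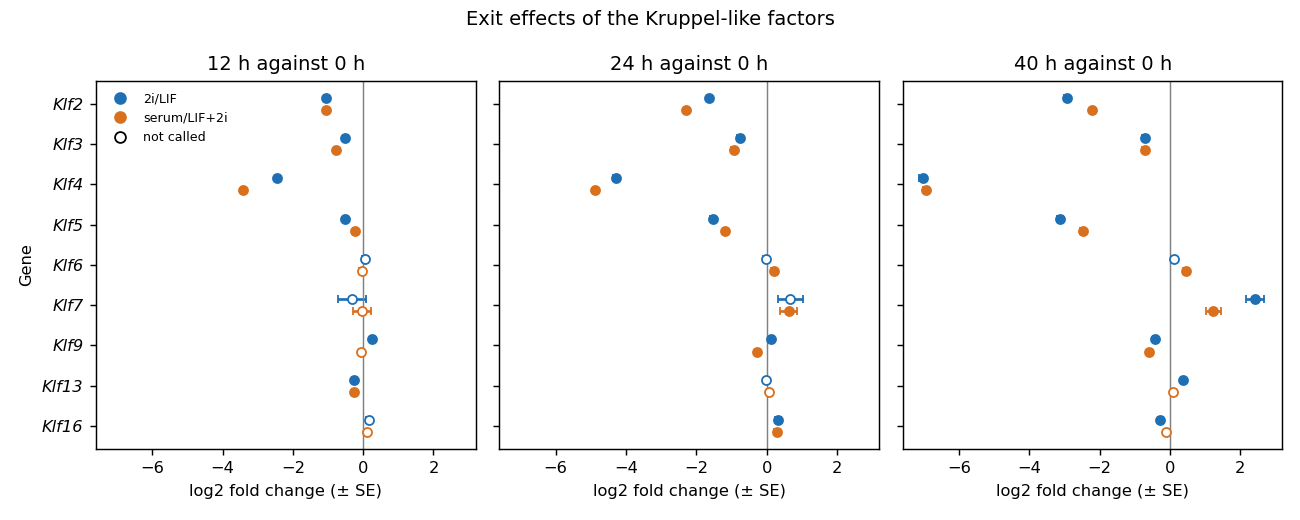
Log2 fold change from 0 h of the 9 genes at the 3 later times in each medium, with bars for the standard error from edgeR's quasi-likelihood fit. Klf4 and Klf2 lie far below 0 in both media. Klf5 lies closer to 0 at 12 h and far below it at 40 h, and Klf3 lies below 0 at each time. Klf7 lies above 0 at 40 h, and Klf6, Klf9, Klf13 and Klf16 stay within 0.60 of 0.

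Counted over the 9 genes, at 12 h 6 were called in 2iLIF, 1 higher and 5 lower, when 44.7% of all genes tested were called (21.0% higher, 23.7% lower). In 2iSL 5 were called at 12 h, 0 higher and 5 lower, against 51.2% of all genes (25.3% higher, 25.9% lower). At 24 h 6 were called in 2iLIF, 2 higher and 4 lower (58.8% of all genes; 29.2% higher, 29.6% lower), and 8 in 2iSL, 3 higher and 5 lower (64.4%; 32.4% higher, 32.0% lower). At 40 h 8 were called in 2iLIF, 2 higher and 6 lower (68.8%; 34.1% higher, 34.7% lower), and 7 in 2iSL, 2 higher and 5 lower (70.5%; 35.3% in either direction). Most of the genes tested were called by 40 h, so the members' counts at that time are read against these shares. The median log2 change of the 9 genes at 40 h was -0.43 in 2iLIF and -0.58 in 2iSL, against 0.01 and -0.00 over all genes. Between successive times, 7 were called from 12 to 24 h in 2iLIF, 2 higher and 5 lower (35.1% of all genes; 17.4% higher, 17.7% lower), and 8 in 2iSL, 4 higher and 4 lower (48.4%; 24.2% in either direction). With DESeq2 these counts were 4 and 5. It called 3457 and 5132 of all 14288 genes in these steps, against 5021 and 6917 in the edgeR fit. From 24 to 40 h 7 were called in 2iLIF, 2 higher and 5 lower (46.7%; 22.2% higher, 24.5% lower), and 7 in 2iSL, 3 higher and 4 lower (50.5%; 25.9% higher, 24.6% lower).

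The family's make-up was compared per length, as RPKM, which is CPM divided by the deposited gene length in kilobases. The sums and shares below depend on these lengths, which for Klf5 is 1728 bases against 5201 in its merged GENCODE exons. Summed over the 9 genes, the level was 466 ± 4.58 RPKM (SD, n = 2) at 0 h in 2iLIF, then 282 ± 7.29, 216 ± 10.2 and 152 ± 1.33 RPKM at the later times. In 2iSL it was 485 ± 18.3, 264 ± 0.546, 193 ± 0.669 and 165 ± 5.06 RPKM. Klf2, Klf4 and Klf5 together made up 69.8 ± 0.508% of the sum at 0 h in 2iLIF and 18.4 ± 0.442% at 40 h. In 2iSL their share went from 68.9 ± 1.28% to 24.7 ± 0.107%. Klf4 alone went from 23.1% to 0.533% in 2iLIF and from 28.4% to 0.668% in 2iSL, while the share of Klf9 went from 10.2% to 23.0% and from 12.0% to 23.6%.

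**Figure D3:**
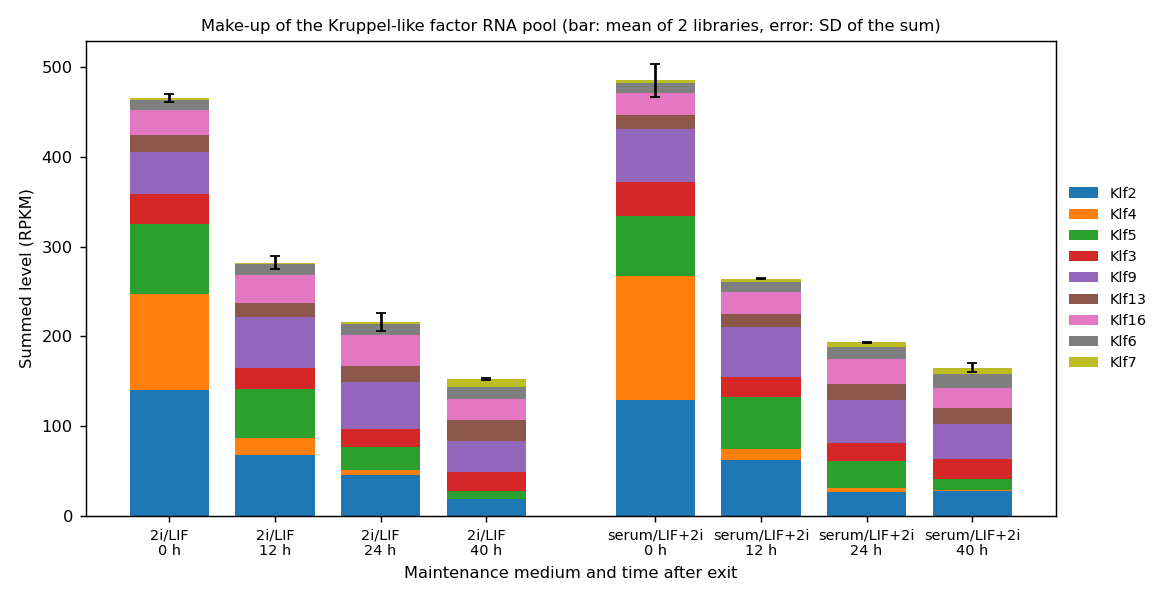
Summed RPKM of the 9 genes in each of the 8 groups, as stacked bars of the mean over 2 libraries, coloured by gene. The sum drops from 466 to 152 RPKM in 2iLIF and from 485 to 165 RPKM in 2iSL, with Klf2, Klf4 and Klf5 losing most of it.

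The order of the RPKM levels turned over with time. At 0 h in 2iLIF it ran Klf2, Klf4, Klf5, Klf9, Klf3, Klf16, Klf13, Klf6, Klf7, with no neighbours overlapping. In 2iSL Klf4 (138 ± 0.513) stood before Klf2 (129 ± 13.0), the libraries of which overlapped, and the rest followed in the same order. At 12 h Klf2 was highest in both media. By 24 h Klf9 was highest in both, at 51.8 RPKM in 2iLIF and 48.4 RPKM in 2iSL. At 40 h the order in 2iLIF was Klf9, Klf13, Klf16, Klf3, Klf2, Klf6, Klf7, Klf5, Klf4, in which Klf13, Klf16 and Klf3 overlapped in turn, as did Klf7 and Klf5. In 2iSL it was Klf9, Klf2, Klf3, Klf16, Klf13, Klf6, Klf5, Klf7, Klf4, with only Klf3 and Klf16 overlapping. Klf2 therefore was number 5 in 2iLIF and number 2 in 2iSL, at 18.3 and 27.6 RPKM. The deposited lengths of Klf3, Klf5, Klf7 and Klf9 are 2314, 1728, 1344 and 3263 bases. Their merged exons in GENCODE are longer, at 11243, 5201, 8131 and 4815 bases. The order of the genes, and with it whether Klf9 is highest at 24 and 40 h, therefore depends on the gene model.

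Comparing the media at the same time asked how levels of the family differed between 2iSL and 2iLIF cells, which differed in more than serum. At 0 h, 6 of 9 genes were called, 3 higher and 3 lower in 2iSL, with 33.0% of all genes called (14.6% higher, 18.4% lower). Klf4 was higher in 2iSL (log2 difference 0.36 ± 0.04, adjusted p = 4.5e-12), as was Klf9 (0.31 ± 0.05, adjusted p = 3.1e-07). The other 4 calls at 0 h, Klf5, Klf7, Klf13 and Klf16, were each lost with DESeq2, at -0.20, 0.90, -0.15 and -0.25 (adjusted p = 0.087, 0.085, 0.14 and 0.082). Each was also lost without some of the 0 h libraries: Klf5 without replicate 1 of 2iLIF or replicate 2 of 2iSL (-0.16 and -0.12), Klf7 without replicate 2 of 2iLIF or replicate 1 of 2iSL (0.53 and 0.70), Klf16 without replicate 2 of 2iLIF (-0.16), and Klf13 without any of the 4. The Klf13 call was lost as well without some single libraries of 12 or 24 h. It was also lost with library size only (-0.13, adjusted p = 0.089), without the filter (-0.15, adjusted p = 0.058) and without ribosomal RNA genes (-0.13, adjusted p = 0.086). At 12 h 4 were called, 1 higher and 3 lower (30.3% of all genes; 14.8% higher, 15.5% lower), and Klf4 was now lower in 2iSL (-0.60 ± 0.08, adjusted p = 6.8e-11). Klf13 was lower there too (-0.16 ± 0.06, adjusted p = 0.032), a call lost with DESeq2 (-0.16, adjusted p = 0.14) and without replicate 2 of 12 h in 2iLIF (-0.12) or either replicate of 12 h in 2iSL (-0.13 and -0.19). Klf16 was lower in 2iSL at 12 h (-0.31 ± 0.07, adjusted p = 0.00044) and 24 h (-0.28 ± 0.07, adjusted p = 0.00066), calls kept under every alternative run. Klf7 was higher there at 12 h (1.18 ± 0.32, adjusted p = 0.0023) and at 24 h (0.86 ± 0.25, adjusted p = 0.0041), calls lost without replicate 2 of 12 h in 2iLIF (0.92, adjusted p = 0.079) and replicate 1 of 24 h in 2iLIF (0.68, adjusted p = 0.11).

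At 24 h 3 genes were called between the media, 1 higher and 2 lower in 2iSL (31.1% of all genes; 14.1% higher, 17.0% lower). Klf2 was lower there at 24 h (-0.76 ± 0.07, adjusted p = 9.7e-17) and higher at 40 h (0.59 ± 0.08, adjusted p = 2.3e-09), and the libraries of the media did not overlap at either time. At 40 h 5 were called, 4 higher and 1 lower (27.3%; 13.9% higher, 13.4% lower). Klf5 was higher in 2iSL (0.44 ± 0.12, adjusted p = 0.0020) and Klf13 lower (-0.42 ± 0.05, adjusted p = 1.3e-11). Klf6 was higher (0.28 ± 0.07, adjusted p = 0.0016), a call lost without replicate 1 of 40 h in 2iLIF (0.20, adjusted p = 0.11) or in 2iSL (0.23, adjusted p = 0.055). Klf9 was higher (0.16 ± 0.05, adjusted p = 0.015), and was lost with DESeq2 (0.16, adjusted p = 0.090) and without the same replicate of 2iLIF (0.08, adjusted p = 0.44) or 2iSL (0.14, adjusted p = 0.12). The difference for Klf4 at 40 h was 0.44 ± 0.27 (adjusted p = 0.25) at 2.46 and 3.36 CPM.

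**Figure D4:**
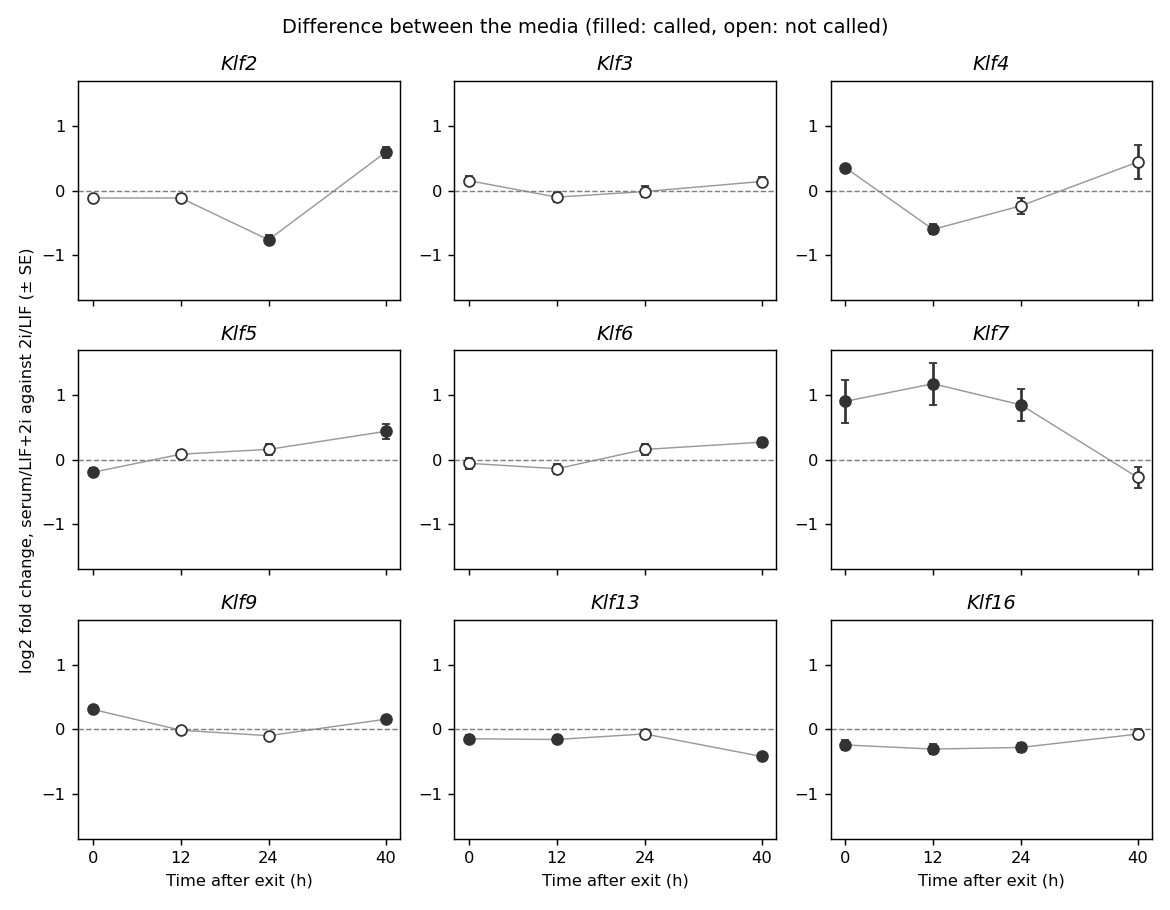
Log2 difference between 2iSL and 2iLIF for the 9 genes at 0, 12, 24 and 40 h, with bars for the standard error from edgeR's quasi-likelihood fit. Klf2 crosses from -0.76 at 24 h to 0.59 at 40 h, and Klf4 crosses from 0.36 at 0 h to -0.60 at 12 h.

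The exit effects themselves were compared between media with an interaction term, the effect in 2iSL minus that in 2iLIF. At 12 h 3 genes differed, 1 with a positive and 2 with a negative term (9.20% of all genes; 4.80% positive, 4.40% negative). Klf4 had fallen further in 2iSL (-0.96 ± 0.09, adjusted p = 1.5e-16), and the term was still -0.59 ± 0.13 at 24 h (adjusted p = 0.00026), but 0.09 ± 0.27 at 40 h (adjusted p = 0.86). Klf9 had terms of -0.32 ± 0.07 at 12 h (adjusted p = 0.00043) and -0.41 ± 0.07 at 24 h (adjusted p = 1.8e-06). At 24 h 4 differed, 1 positive and 3 negative (20.8%; 9.77% positive, 11.0% negative), among them Klf2 with -0.65 ± 0.09 (adjusted p = 1.4e-09). At 40 h 5 differed, 3 positive and 2 negative (27.6%; 14.8% positive, 12.8% negative), and the term of Klf2 was now 0.71 ± 0.10 (adjusted p = 1.3e-09).

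The terms of Klf5 were positive throughout, at 0.28 ± 0.09 at 12 h (adjusted p = 0.024), 0.36 ± 0.10 at 24 h (adjusted p = 0.0050) and 0.63 ± 0.13 at 40 h (adjusted p = 6.2e-05). The call at 12 h was lost with DESeq2 (0.29, adjusted p = 0.20), without ribosomal RNA genes (0.25, adjusted p = 0.050) and without any of 5 libraries: replicate 1 of 0 h or either replicate of 12 h in 2iLIF (0.24, 0.30 and 0.27), and replicate 2 of 0 h or replicate 1 of 12 h in 2iSL (0.21 and 0.27). That at 24 h was lost without replicate 2 of 24 h in 2iLIF (0.25, adjusted p = 0.12). Klf13 had a term of -0.27 ± 0.08 at 40 h (adjusted p = 0.0043). Klf7 had -1.18 ± 0.37 at 40 h (adjusted p = 0.010), lost with DESeq2 (-1.18, adjusted p = 0.065), without replicate 2 of 0 h in 2iLIF (-0.81, adjusted p = 0.17) and without replicate 1 of 0 h in 2iSL (-0.97, adjusted p = 0.11). Klf6 had 0.33 ± 0.11 (adjusted p = 0.021), lost with DESeq2 (0.33, adjusted p = 0.11) and without either replicate of 0 h or replicate 1 of 40 h in 2iLIF (0.32, 0.33 and 0.26), or replicate 1 of 0 h or of 40 h in 2iSL (0.22 and 0.29).

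For the step from 24 to 40 h, the added comparison, 4 of 9 genes differed between the media, 2 positive and 2 negative (12.2% of all genes; 6.57% positive, 5.63% negative). Beside Klf2, Klf13 kept its call under every alternative run (-0.35 ± 0.08, adjusted p = 0.00028), since it rose in 2iLIF (0.36 ± 0.05) and measured 0.01 ± 0.05 in 2iSL. Klf7 had -1.13 ± 0.30 (adjusted p = 0.0040), lost with DESeq2 (adjusted p = 0.082) and without replicate 1 of 24 h in 2iLIF (-0.95, adjusted p = 0.075). Klf9 had 0.26 ± 0.07 (adjusted p = 0.0071), lost with DESeq2 (0.25, adjusted p = 0.080) and without replicate 1 of 24 h or of 40 h in 2iLIF (0.22 and 0.18, adjusted p = 0.075 and 0.14) or replicate 1 of 40 h in 2iSL (0.23, adjusted p = 0.057).

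Of the other Klf and Sp genes, 14 of 17 were tested, and Klf14, Sp7 and Sp9 did not pass the filter. At 40 h 3 rose, 8 fell and 3 did not pass the test in 2iLIF (median log2 change -0.33), and 4 rose, 8 fell and 2 did not pass in 2iSL (median -0.35). Over all genes tested, 34.1% rose and 34.7% fell in 2iLIF, and 35.3% moved in either direction in 2iSL. Those that fell were Klf8, Klf10, Klf15, Sp1, Sp2, Sp3, Sp5 and Sp6 in both media. Klf17 and Sp4 rose in both, Klf11 in 2iLIF, and Klf12 and Sp8 in 2iSL. Klf8, a repressor related to Klf3, went from 119 to 11.9 CPM in 2iLIF (-3.33 ± 0.10, adjusted p = 1.3e-60) and from 99.6 to 11.1 CPM in 2iSL (-3.16 ± 0.09, adjusted p = 6.3e-61), a deeper fall than that of Klf3 by these values, which was not tested as a difference. Sp5, a known target of Wnt signalling, had 536 and 636 counts at 0 h in 2iLIF and 3 and 0 counts at 12 h, then 0 and 0 at 24 h. In 2iSL it had 332 and 283 counts at 0 h and 0 in both libraries at 12 h. By 12 h, then, Sp5 was at or under the floor of 3 counts in every library.

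Klf15 fell to 5.86 CPM in 2iLIF and 10.1 CPM in 2iSL at 40 h, from 28.9 and 32.1 CPM. Klf10, an early response gene of TGF-beta signalling, fell by 0.46 ± 0.06 and 0.73 ± 0.06 on the log2 scale. Klf17 was at 0.248 ± 0.136 CPM at 0 h in 2iLIF, within the floor, and at 3.15 ± 0.734 CPM at 40 h. In 2iSL it went from 0.588 ± 0.415 to 5.99 ± 0.670 CPM. Sp1, the broadly expressed founder of the Sp group, changed by -0.11 ± 0.04 and -0.09 ± 0.04. Sp8 went from 2.13 to 8.35 CPM in 2iSL (1.96 ± 0.26, adjusted p = 7.0e-11) and from 4.28 to 3.59 CPM in 2iLIF (-0.25 ± 0.29, adjusted p = 0.44).

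Of 14 genes that work with the Klf factors in naive cells, 12 fell, 1 rose (Gbx2) and 1 did not pass the test (Pou5f1) at 40 h in each medium, with median log2 changes of -3.01 in 2iLIF and -3.18 in 2iSL, when 34.7% and 35.3% of all genes tested fell (34.1% and 35.3% rose). The largest changes were in Prdm14 (-7.27 and -7.91), Tfcp2l1 (-6.63 and -6.29), Tbx3 (-7.03 and -5.69), Esrrb (-4.61 and -5.87) and Nanog (-4.58 and -5.69). The log2 changes of Klf4 (-7.04 and -6.95) lay between those of Tfcp2l1 and Prdm14 in both media. The list was drawn up with earlier results of these data known, so its direction is not independent evidence. Genes given in brackets with a count here and in the next paragraph were named after their values were seen.

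The LIF receptor chains Lifr (-1.88 and -2.55) and Il6st (-2.18 and -1.73), Stat3 (-3.17 and -2.62) and its target Socs3 (-3.71 and -4.67) fell at 40 h in 2iLIF and 2iSL, in that order of values, and Dusp6, a target and inhibitor of ERK, rose by 4.29 and 5.76 on the log2 scale. Of 8 co-repressor genes, 2 rose (Ctbp1, Ctbp2) and 4 fell (Hdac1, Hdac2, Sap30, Sin3b) in 2iLIF (median -0.19), and 3 rose and the same 4 fell in 2iSL (median -0.28), where Fhl3 joined those that rose; these 6 and 7 calls stand against 68.8% and 70.5% of all genes tested (34.1% higher and 34.7% lower in 2iLIF, 35.3% each way in 2iSL). Ctbp2, a partner of Klf3, rose by 0.76 and 0.63, while Sin3b, a relative of Sin3a, changed by -0.51 and -0.66, Hdac2 by -0.49 and -0.78, and Sap30, a subunit of the Sin3 complex, by -0.60 and -1.002. Sin3a itself was not called in either medium (0.04 and -0.03, adjusted p = 0.39 and 0.46). Fhl3 changed by 0.24 in 2iLIF (adjusted p = 0.14) and rose by 1.22 in 2iSL. Of 6 genes of protein turnover, 2 rose (Fbxo32, Smurf1) and 1 fell (Vhl) in 2iLIF (median -0.04), and 2 rose (Fbxo32, Smurf1) and 3 fell (Btrc, Vhl, Wwp1) in 2iSL (median -0.18), against the same shares of all genes, with Fbxo32, a ubiquitin ligase subunit, rising by 4.90 ± 0.80 and 2.11 ± 0.49.

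For each of the 9 genes, the 2 genes with the most similar pattern were sought by Pearson's r of log2 CPM over the 8 group means, among 10695 genes whose mean was 5 CPM or more. Klf4 was most like Slc25a36 (r = 0.999), a mitochondrial carrier, and Baz2b (0.998). Klf2 was most like Prss35 (0.995) and Nptn (0.992), Klf5 like Grhl3, an epithelial transcription factor, and Rreb1 (both 0.994), and Klf3 like Tead1, the partner of YAP, and Mms19 (both 0.993). Klf7 was most like Nudt14 (0.993) and Krt18 (0.992), Klf6 like Rasal1 and Smad5 (both 0.978), and Klf9 like Pym1 (0.989) and Bclaf3 (0.972). For Klf13 the genes were Gm15484 (0.987) and Nemp2 (0.965), and for Klf16 Epn2 (0.976) and Fem1a (0.964). The likeness is of shape and not of size: Klf4 changed by 132-fold in 2iLIF, whereas Slc25a36 went from 235 to 73.0 CPM. These are the best of many candidates over 8 points that share a time course, so they are descriptions with no test.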

How the data were processed

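RNA was measured with a stranded poly(A) kit after TRIzol extraction, per the labels' protocols, in 8 groups of 2 libraries, grouped by their titles. The protocol gives 24 or 40 h for 2iSL, whereas 12 h samples are titled for it, and the titles were followed. The authors deposited 1 table of whole-number counts per gene that are not normalized, made with fastp, STAR and featureCounts on mm10, per the submitters' processing notes. Versions, annotation and strand setting are not given in the sources used here. Genes without a symbol (1049, with 0.331 to 0.607% of counts) were kept.

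From the counts, all libraries were fitted in 1 edgeR (4.0.16, R 4.3.3) quasi-likelihood model with TMM scaling and filterByExpr (minimum count 10, total 15), which tested 14288 genes with 8 residual degrees of freedom. Tests were two-sided with Benjamini-Hochberg adjustment over all these genes for each of 18 comparisons, called under 0.05. All adjusted p in the text come from this model unless DESeq2 (1.42.0) is named. The procedure was tested on simulated data. Positions are from GENCODE on GRCm38 and promoters from RefSeq, the same assembly. The floor of 3 counts covers counting error only, since reads carry no molecular identifiers, whereas standard errors and SDs hold the spread between libraries.

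The 9 genes and the lists were chosen with earlier results of these data known. Named were all 9 genes, any tested Klf or Sp gene, up to 5 genes of each other list with the largest mean change at 40 h, and 2 most similar genes for each member. Sin3a was named in addition, after its values were seen. No pairing of samples by replicate number was seen over all genes tested. Over 28 pairs of groups, the correlation of same-numbered deviations ran from -0.023 to 0.0331, with 0 above 0.1. An effect shared by same-numbered replicates on a small set of genes could be missed by this check. Counts over the list of LIF, Wnt and ERK inputs are not reported here.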

Additional observations from a re-analysis of the deposited data

Results flagged for a closer look

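For these genes the change with time differed between media past the threshold, by edgeR's quasi-likelihood test of the interaction, which tests the difference directly. Values are the log2 change in 2iSL minus that in 2iLIF, relative to 0 h unless a step is named. Klf4 differed by -0.96 at 12 h and -0.59 at 24 h. Klf2 differed by -0.65 at 24 h and by 0.71 at 40 h, a change of sign, and by 1.36 in the step from 24 to 40 h. Klf5 differed by 0.28, 0.36 and 0.63 at 12, 24 and 40 h. Klf9 differed by -0.32 at 12 h, -0.41 at 24 h and 0.26 in the step from 24 to 40 h. Klf13 differed by -0.27 at 40 h and -0.35 in that step. Klf7 differed by -1.18 at 40 h and -1.13 in that step, and Klf6 by 0.33 at 40 h. With DESeq2 the calls of Klf7 at 40 h and in the step (adjusted p = 0.065 and 0.082), Klf6 (0.11), Klf5 at 12 h (0.20) and Klf9 in the step (0.080) were lost. Each of these 5, and Klf5 at 24 h, was also lost without at least 1 single library. Exit media differed along with maintenance media, so these cannot be told apart.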

How the results depend on the processing

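Of 103 calls of single genes, 75 were kept under every alternative run (24 for exit and step effects, 23 for medium differences and interactions), 22 were lost with DESeq2, and 0 called values changed sign. Calls were gained in 26 fits for 13 results, most often for Klf16 at 12 h in 2iLIF. Treating the replicate number as a block changed 0 calls of the 9 genes, and over all genes the count at 40 h in 2iLIF was 9835 with the replicate block against 9837. With DESeq2, the genes called were 4 rather than 7 from 12 to 24 h in 2iLIF, 5 rather than 8 in 2iSL, 2 rather than 6 between media at 0 h, 3 rather than 5 in the interaction at 40 h and 2 rather than 4 in the step interaction. Of all 14288 genes, DESeq2 called fewer too, with 3457 rather than 5021 and 5132 rather than 6917 in the same steps. The counts were 3115 rather than 4710 between media at 0 h and 2419 rather than 3940 in the interaction at 40 h. In the step interaction they were 783 rather than 1743. The causes were not tested.

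Leaving out 1 library moved the number of genes called between media at 0, 12 and 40 h and in the interaction at 40 h. It also moved the number called in the step interaction and from 12 to 24 h in 2iLIF. Each such fit leaves a group with 1 library, so these numbers are not given.

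Differences near 0 that had not been called changed sign. The interaction of Klf2 at 12 h (-0.00) was 0.00445 with DESeq2, 0.00636 with its size factors, 0.00536 without the filter, 0.00639 at a mean of at least 5 CPM and 0.000459 with the replicate block. At 24 h in 2iLIF, Klf6 was 0.0074 with library size only and 0.00164 without ribosomal RNA, and Klf13 was 0.0188, 0.0132 and, without the filter, 0.00444. The medium difference of Klf3 at 24 h was 0.0101 with library size only and 0.000348 at a mean of at least 5 CPM.

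Without single libraries, log2 values not called in the full fit spanned 0 as follows. At 12 h, exit effects ran from -0.67 to 0.13 for Klf7 in 2iLIF and, in 2iSL, from -0.21 to 0.18 for Klf7 and -0.14 to 0.10 for Klf6. At 24 h in 2iLIF they ran from -0.0334 to 0.00434 for Klf6 and -0.0259 to 0.0170 for Klf13. From 24 to 40 h they ran from -0.0911 to 0.23 for Klf3 in 2iLIF and -0.0515 to 0.0549 for Klf13 in 2iSL. Medium differences ran from -0.18 to 0.0598 for Klf6 at 0 h, -0.0328 to 0.000536 for Klf9 at 12 h, -0.16 to 0.16 for Klf3 at 24 h and -0.24 (called, adjusted p = 0.024) to 0.13 for Klf16 at 40 h. Interactions at 12 h ran from -0.0943 to 0.10 for Klf2, -0.20 to 0.0424 for Klf6, -0.15 to 0.65 for Klf7, -0.0487 to 0.0350 for Klf13 and -0.15 to 0.0182 for Klf16. At 24 h they ran from -0.32 to 0.00502 for Klf3, -0.47 to 0.33 for Klf7 and -0.12 to 0.0544 for Klf16, and at 40 h from -0.0785 to 0.0495 for Klf3 and -0.0684 to 0.27 for Klf4. The step interaction of Klf3 ran from -0.0184 to 0.30. Leaving out a library leaves its group with 1, which is assumed to vary like the others. Depth limits Klf4 at 40 h and Klf7 throughout.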
